A study of Arabidopsis thaliana with 12 samples.

Results

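Introns that contain an annotated alternative splicing event (a competing donor or acceptor site, or an alternative exon) were described in Arabidopsis seedlings that lacked normal function of the splicing factor RRC1. The members were every intron that the deposited splicing tables class as overlapping such an event. There were 810 in 716 genes among the 6244 features listed for rrc1-3 against Col-0 in the dark, 837 in 735 genes among 6003 in red light, and 69 in 60 genes among 843 for red light against dark within rrc1-3. Across the 3 comparisons they came to 1149 introns in 988 genes, and 127 genes held more than 1 member. Members of 1 gene can overlap and share boundary reads, so they are not independent.

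The study sequenced total RNA, depleted of ribosomal RNA, from whole seedlings of Col-0, the wild type, and of rrc1-3, a mutant allele of RRC1 in the Col-0 background. All seedlings were 4 days old and grown in darkness. In the dark groups they stayed dark, and in the red light groups they received red light at 7 µmol per square metre and second for 3 hours. Each of the 4 groups had 3 libraries. The labels do not say how the rrc1-3 allele was made or whether the libraries came from separate cultures, so p-values measure the spread between these libraries only. Whole seedlings hold many cell types, and fewer cells of a type cannot be told apart from less RNA per cell. Tissue markers were not checked, since the tables list selected features only.

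An intron is removed between a donor site at its 5′ end, which begins with GT in nearly all plant introns, and an acceptor site at its 3′ end, which ends with AG. SR proteins and related factors bind the transcript and help the spliceosome to choose among sites that compete. In plants, unspliced introns and shifted acceptors are common outcomes of that choice. RRC1 is an SR-like splicing factor that acts with SFPS and with the photoreceptor phytochrome B in the response of seedlings to red light.

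Of the 1149 members, 1126 (98.0%) matched an intron of a RefSeq transcript of the same gene, and 1123 had a GT donor and an AG acceptor. The other 26 began with GC, a share of 2.26%, beside 1.05% of the introns listed with no alternative event (plain introns). Members were longer than plain introns, with a median of 289 nt (65 to 5610 nt) beside 121 nt, at a similar GC content of 33.6% and 33.0%. By the longest coding transcript that holds the intron, 597 members (53.0%) lay in the 5′ UTR, 479 (42.5%) between coding exons and 46 (4.09%) in the 3′ UTR. Among plain introns the 5′ UTR held 12.4% and the coding part 84.8%. The member was the first intron of its transcript in 706 cases (62.7%), beside 26.8% of plain introns. An annotated transcript placed a competing acceptor inside 527 members, a competing donor inside 325, both inside 47 and an alternative exon inside 165. A further 32 had only a site outside the member, 18 had only a form that keeps the whole intron, and 35 fitted none of these classes.

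Sequences of 6 members whose competing sites were used in different proportions in rrc1-3 and Col-0, in the dark and in red light, are shown because the 2 sites lie within 30 bases of each other, so that the choice can be read in the letters. They come from RefSeq (TAIR10.1), and the files give coordinates in TAIR10. Each is written 5′ to 3′ on the strand of the gene. Capitals mark the AG of each competing acceptor, or, for AT1G73390, the GT of each competing donor. The downstream AG, or the upstream GT, bounds the longer intron, which is the member. These 6 were chosen after their values were seen.
CKB1 (chr5:19125980-19126009, minus strand, coding, intron 1): tggaatttttgatgtgaatAGatgaatcAG
AT3G58450 (chr3:21622395-21622424, plus strand, coding, intron 1): aattcttAGcttcggcggtgtatgcgacAG
AT3G48820 (chr3:18102633-18102662, minus strand, coding, intron 1): tAGacgagtctaatcgttttaccaatgaAG
AT4G10925 (chr4:6704352-6704381, minus strand, 5′ UTR, intron 1): atcAGtccttattgttcttcataatcgcAG
AT5G16880 (chr5:5549608-5549637, plus strand, 5′ UTR, intron 1): ttccAGgttcttgctgtttttcatttacAG
AT1G73390 (chr1:27594475-27594504, minus strand, 5′ UTR, intron 2): caagagGTagGTgagaaaatcaaaactctt

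The whole intron of AT5G26270 is shown as well, because it had the largest rise in retention in rrc1-3 in the dark among the members named by the rule. It is the 134-nt intron 1, between coding exons (chr5:9206962-9207095, plus strand, TAIR10). Capitals mark its donor GT, the GT of a competing donor that begins 47 nt into the intron, and its acceptor AG.
AT5G26270: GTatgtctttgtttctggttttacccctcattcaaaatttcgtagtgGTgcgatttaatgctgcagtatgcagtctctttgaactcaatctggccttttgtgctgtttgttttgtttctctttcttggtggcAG

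Retention was computed per library as the mean of the reads that cross the 2 exon-intron boundaries, divided by that mean plus the reads spliced over the member's own junction, in percent. Reads of transcripts that use an inner site also cross a boundary of the member, and reads spliced to a competing site are not in the denominator, so retention of a member holds both unspliced introns and use of the competing site. The libraries held 105179 to 213492 reads spliced over members in the genotype comparisons and 36319 to 46722 in the light comparison. The median reads per member were 79.0 to 122.5 per library in the genotype comparisons. Strand of the libraries is not given in the sources used here, and reads of overlapping genes cannot be told apart. 12 members in each genotype comparison lay where 2 genes overlap. As a check of the labels, an intron of RRC1 itself (chr5:8634834-8635302) was covered by 165 to 237 spliced reads in the 6 Col-0 libraries and by 2 to 20 in the 6 rrc1-3 libraries. Its retention was 0.602% to 4.95% in Col-0 and 88.6% to 98.4% in rrc1-3. It is a plain intron, and neither RRC1 nor SFPS held a member.

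In the dark, members were retained more in rrc1-3 than in Col-0 more often than the reverse, and the 5′ UTR held most of the rises. 809 members had a mean of at least 10 reads and were tested. 392 (48.5%) were called at an adjusted p under 0.05, beside 54.0% of all listed features. Retention was higher in rrc1-3 at 293 (36.2%) and lower at 99 (12.2%). Over all listed features the shares were 25.9% higher and 28.1% lower. The tables list only features the authors had called, with a deposited false discovery rate under 0.05 and a difference of at least 3 points, so a call is partly built in, and the size, direction and spread are what the counts add. The median difference over members was 5.99 points, and 566 of 810 differences were above 0. Over plain introns the median was -3.35 points. The 3 rrc1-3 libraries lay entirely above the 3 Col-0 libraries at 335 members (41.4%) and entirely below at 115 (14.2%), beside 31.4% and 33.1% of all listed introns.

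Red light gave the same order of counts. Of 834 tested members, 449 (53.8%) were called, beside 57.1% of all listed features. Retention was higher in rrc1-3 at 364 (43.6%) and lower at 85 (10.2%), beside 36.0% and 21.1% of all features. The lower count was 54 without Col-0 red light replicate 2 and 56 without replicate 3. The median difference was 6.59 points over members, with 643 of 837 above 0, and 3.47 points over plain introns. The libraries of the genotypes did not overlap at 418 members in the higher direction (50.1%) and 109 in the lower (13.1%), beside 42.9% and 24.5% of all listed introns. Reading a change as at least 10 points left 163 higher and 57 lower in the dark, and 208 and 44 in red light. DESeq2 called 192 and 64 in the dark and 224 and 44 in red light. The first boundary alone gave 190 higher in the dark, and the second boundary alone 192 in the dark and 228 in red light.

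The counts differed with the position in the transcript. In the dark, 203 of 440 members in the 5′ UTR rose and 25 fell, with a median difference of 8.36 points. Of 321 between coding exons, 78 rose and 66 fell, with a median of 3.20 points, and of 30 in the 3′ UTR, 7 rose and 8 fell. In red light, 254 of 473 in the 5′ UTR rose and 25 fell, with a median of 8.35 points, while 101 of 315 between coding exons rose and 54 fell, with a median of 4.09 points. The 32 in the 3′ UTR divided into 6 and 6. Plain introns of the 5′ UTR showed the same lean, with 274 of 680 rising and 59 falling in the dark and 354 of 690 and 46 in red light. Plain introns between coding exons leaned the other way in the dark, with 861 of 3909 rising and 1376 falling, and in red light 1170 of 3585 rose and 930 fell. Introns of the 5′ UTR with and without an alternative event thus rose more often than they fell, and no test of the difference between these groups of introns was run.

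**Figure D1:**
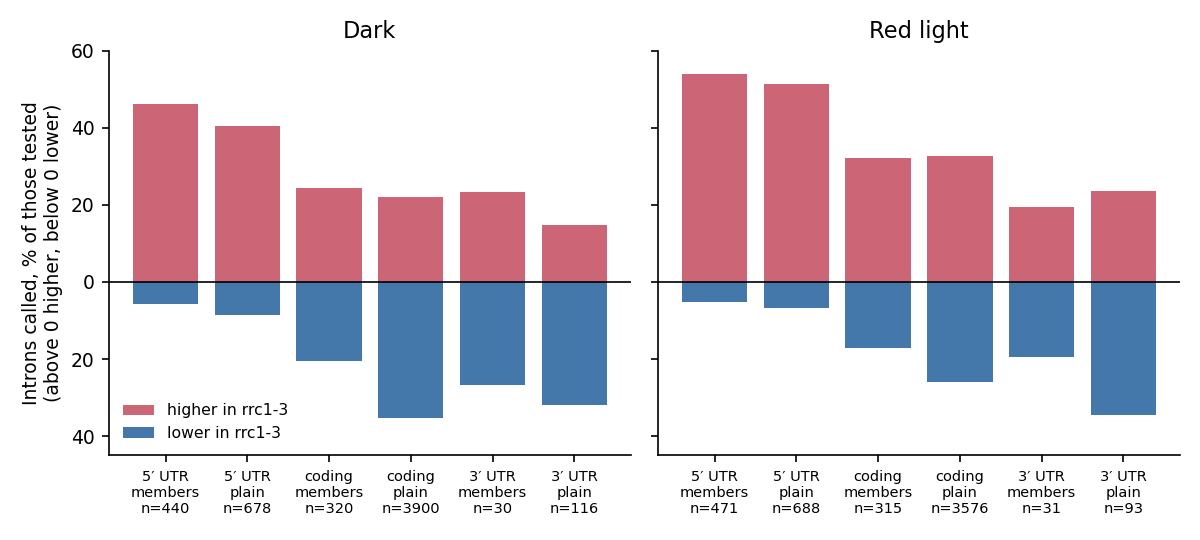
Percent of tested introns called higher (above 0) or lower (below 0) in rrc1-3 than in Col-0, for members and plain introns by position in the transcript, in the dark and in red light. In the 5′ UTR, 203 members rose and 25 fell in the dark, and 254 and 25 in red light.

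The medians per library show the same in every sample. Over 5′ UTR members in the dark the median retention was 24.1%, 25.2% and 25.0% in the Col-0 libraries and 29.5%, 33.3% and 36.7% in the rrc1-3 libraries. In red light it was 25.1%, 22.9% and 23.9% in Col-0 and 33.65%, 35.4% and 38.3% in rrc1-3. The genotypes did not overlap in either condition. Between coding exons the medians in the dark were 22.3%, 23.6% and 24.2% in Col-0 and 22.5%, 24.3% and 27.3% in rrc1-3, and these overlapped. In red light they were 24.1%, 23.4% and 24.9% in Col-0 and 25.0%, 27.1% and 30.7% in rrc1-3, which lay just above.

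Rises outnumbered falls among 5′ UTR members in the length classes and kinds of event given here. Over all 5′ UTR members in the dark, 46.1% rose and 5.68% fell, beside 40.4% and 8.70% of plain 5′ UTR introns. In the dark, members of the 5′ UTR up to 150 nt long rose in 22 cases and fell in 6. Those over 300 and up to 500 nt rose in 84 of 158 cases and fell in 7, and those over 500 nt rose in 60 of 117 and fell in 6. By kind of event, 72 of 178 with an inner acceptor rose and 14 fell, 73 of 146 with an inner donor rose and 3 fell, and 30 of 69 with an inner exon rose and 4 fell. Among all members, those over 300 and up to 500 nt rose in 100 of 222 cases and fell in 16, whereas those up to 150 nt rose in 58 of 229 and fell in 37. In red light, 121 of 225 members with an inner donor rose and 13 fell, while 145 of 399 with an inner acceptor rose and 47 fell.

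The 2 ends of 5′ UTR members did not move alike. The reads at the acceptor boundary gained on the reads at the donor boundary in rrc1-3. Over 5′ UTR members in the dark, the median unspliced share at the donor side was 19.7%, 20.7% and 20.4% in Col-0 and 20.75%, 23.2% and 25.2% in rrc1-3. At the acceptor side it was 22.9%, 23.5% and 25.25% in Col-0 and 35.1%, 39.2% and 41.0% in rrc1-3. The acceptor side thus lay far above Col-0 in all 3 mutant libraries and the donor side little above. In red light the donor side was 19.7%, 17.7% and 20.3% in Col-0 and 21.7%, 23.1% and 25.45% in rrc1-3, and the acceptor side 23.8%, 21.6% and 24.35% in Col-0 and 39.5%, 40.6% and 43.4% in rrc1-3.

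**Figure D2:**
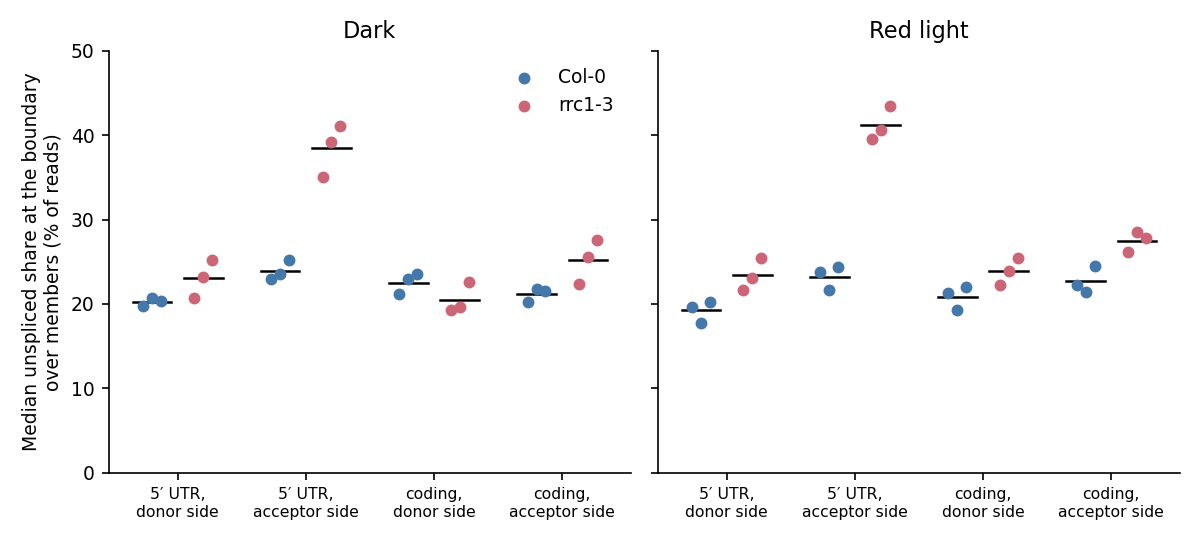
Median share of unspliced reads at the donor and acceptor boundary over members of the 5′ UTR and over members between coding exons, in percent. Points are libraries and lines group means. The acceptor side of 5′ UTR members lies at 35.1% to 43.4% in rrc1-3 and 21.6% to 25.25% in Col-0.

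A test of the balance between the 2 boundaries, added after the data were seen, was run over all listed introns with enough reads. In the dark, 110 of 424 tested 5′ UTR members (25.9%) moved to the acceptor side and 1 moved to the donor side, with a median shift of 0.95 on the log2 scale, where the background over all listed introns was 6.73% and 0.871%. The count to the acceptor side was 54 without Col-0 dark replicate 1, 70 without replicate 2, 71 without replicate 3 and 55 without the second rrc1-3 dark library. In red light, 160 of 455 (35.2%) moved to the acceptor side and 2 to the donor side, with a median of 0.96, beside a background of 10.1% and 1.17%. Between coding exons, 29 of 303 members moved to the acceptor side and 1 to the donor side in the dark, and 22 and 6 of 299 in red light. Plain 5′ UTR introns gave 84 and 6 of 626 in the dark and 139 and 8 of 645 in red light.

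Tested alone, the acceptor boundary was higher in rrc1-3 at 217 of the 440 members of the 5′ UTR and lower at 12 in the dark. The donor boundary was higher at 48 and lower at 24. In red light these were 268 and 9 of 473 at the acceptor and 64 and 31 at the donor. Of 321 members between coding exons in the dark, the acceptor was higher at 67 and lower at 35, and the donor at 37 and 54. Of 315 in red light these were 82 and 33, and 46 and 37. Plain introns were not counted for each boundary alone. Among 5′ UTR members with no annotated transcript start inside them, 103 of 378 moved to the acceptor side in the dark and 0 to the donor side, and 147 and 1 of 403 in red light. Among those with one, 7 of 46 moved to the acceptor side and 1 to the donor side in the dark, and 13 and 1 of 52 in red light.

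Counts behind these shares show what moved. Scaled to each library's spliced reads over all listed features, spliced reads of 5′ UTR members were lower in rrc1-3 by a median of -0.99 on the log2 scale in the dark and -0.84 in red light. Reads at the donor boundary were lower too (-0.57 and -0.47), while reads at the acceptor boundary were higher (0.25 and 0.50). Plain 5′ UTR introns had close values, with spliced reads at -0.87 and -0.77. Their donor boundary reads were at -0.59 and -0.35 and their acceptor boundary reads at 0.13 and 0.37. Members between coding exons had spliced reads at 0.25 in the dark and 0.32 in red light. Their donor boundary reads were at 0.11 and 0.39 and their acceptor boundary reads at 0.33 and 0.54. Acceptor boundary reads were thus higher there as well, whereas spliced and donor boundary reads were lower only in the 5′ UTR of these groups.

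Spliced reads moved with position along the gene in the same direction. Over plain introns in bin 1 of 5 equal bins along the gene, counted from its 5′ end, the median change in scaled spliced reads was -0.43 in the dark, and in the later bins it was 0.51 to 0.65. The red light medians were -0.45 and then 0.44 to 0.59. The 60 members between coding exons that lay in bin 1 had a median of -0.10 in the dark, and 12 of them rose in retention while 16 fell. The 356 members of the 5′ UTR in bin 1 had a median of -1.03, with 151 rising and 22 falling, and the 82 in bin 2 had -0.88, with 51 rising and 3 falling. The part of this 5′ to 3′ gradient of reads in the retention differences was not tested.

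The expression of the host genes of members was looked up. Host genes of the other listed features were not, so these counts have no background share. A link between retention and expression was not tested. Per the authors' deposited table, 56 of the 716 genes with a member in the dark were higher in rrc1-3 and 96 lower, or 21.2% in all. Of the 267 genes with a member called higher in retention, the authors' deposited table gave 13 with more transcript in rrc1-3 and 42 with less. Of the 96 with a member called lower, the authors' deposited table gave 12 and 7, and of the 393 with one not called, 33 and 51. In red light the authors' deposited table listed 44 of 735 host genes as higher and 52 as lower, and, of the 336 with a member called higher, 12 and 27. Of the 80 with a member called lower, the authors' deposited table gave 7 and 4, and of the 363 with one not called, 27 and 22. For the 60 host genes in the light comparison, the authors' deposited table gave 23 with more transcript in red light and 8 with less. There, of the 38 with a member called higher, the authors' deposited table gave 13 and 7, and of the 9 called lower, 6 and 0.

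The largest rises in the dark were named by a fixed rule that took the 8 largest and the 8 lowest differences among called members with enough reads and no overlap of libraries. The first was AT5G26270, of unknown function, whose intron is printed above. Its retention was 48.1%, 55.0% and 45.1% in Col-0 and 86.3%, 91.9% and 86.5% in rrc1-3. All rrc1-3 libraries lay above all Col-0 libraries, the means being 49.4% ± 5.1 and 88.3% ± 3.2 (SD, n = 3 each), and the log2 odds rose by 2.97 (edgeR quasi-likelihood test, adjusted p = 7.7e-10). Here both boundaries moved alike, from 50.6% to 89.2% at the donor and from 48.1% to 87.1% at the acceptor. In red light the intron was at 50.6%, 55.6% and 57.2% in Col-0 and 89.5%, 89.6% and 91.7% in rrc1-3 (adjusted p = 1.41e-08).

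AT5G03500 encodes Med7, a subunit of the Mediator complex that links transcription factors to RNA polymerase II. Its member, the 450-nt intron 1 in the 5′ UTR (chr5:877667-878116), was at 17.7%, 12.5% and 13.1% in Col-0 and 50.9%, 47.3% and 52.0% in rrc1-3 in the dark. The groups were far apart (adjusted p = 7.78e-09), and in red light 14.5%, 10.2% and 12.8% stood against 40.6%, 53.6% and 56.3%. The acceptor side carried most of the difference in the dark, going from 18.3% to 63.9%, while the donor side went from 9.99% to 18.7%.

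BPC2, a GAGA-binding transcription factor, showed a division of the boundaries. Retention of its only intron, 519 nt in the 5′ UTR (chr1:5042558-5043076), was 17.1%, 22.2% and 11.3% in Col-0 and 37.2%, 44.8% and 60.4% in rrc1-3 in the dark (adjusted p = 3.28e-05). The acceptor boundary had 30, 49 and 23 reads in Col-0 and 88, 139 and 115 in rrc1-3. The donor boundary had 13, 4 and 2 reads in Col-0 and 2, 4 and 1 in rrc1-3. At the donor boundary alone the log2 odds were at -0.79, the opposite direction, and did not pass the test.

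ABF3, a bZIP transcription factor of the abscisic acid response, had reads at the acceptor boundary with almost none at the donor. Its 490-nt intron 1 in the 5′ UTR (chr4:16295470-16295959) was at 43.9%, 49.2% and 57.5% in Col-0 and 73.4%, 79.5% and 80.5% in rrc1-3 (adjusted p = 6.34e-08). The donor boundary held 0 to 2 reads per library, the acceptor boundary 553 to 764. The spliced reads were 393, 294 and 223 in Col-0 and 100, 95 and 93 in rrc1-3, so the groups differed in spliced reads with acceptor reads at a similar level.

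VAB2, a B subunit of the vacuolar proton pump, had its 163-nt intron 2 in the 5′ UTR (chr4:18014797-18014959) at 22.8%, 27.7% and 22.2% in Col-0 and 38.2%, 65.9% and 57.7% in rrc1-3 in the dark. Under red light its values were 24.0%, 19.7% and 24.9% in Col-0 and 100%, 56.9% and 68.7% in rrc1-3. The first rrc1-3 red light library had 0 spliced reads over this junction, which gives the value of 100%, and the other two had 31 and 26. The adjusted p was 1.91e-04 in the dark and 1.23e-04 in red light.

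The other named rises in the dark were all first introns of the 5′ UTR. AT2G18750, a calmodulin-binding protein, went from 30.4% ± 1.8 to 60.6% ± 9.6. AT3G26890 went from 48.6% ± 2.4 to 77.8% ± 7.0, and AT2G26210, with ankyrin repeats, from 40.7% ± 2.4 to 69.9% ± 6.2 (SD, n = 3 each). In all 3 the acceptor side rose, for AT3G26890 from 61.4% to 87.1%, while its donor side was at 22.5% and 18.9%. In red light the rule named 3 introns not named in the dark. AT5G26610, with a G-patch domain, went from 37.6% ± 2.8 to 72.1% ± 6.5. AT4G23910 went from 22.5% ± 1.9 to 56.1% ± 21, with 79.6% in 1 library and 48.4% and 40.4% in the others. ATXRCC1, a DNA repair protein, went from 27.0% ± 3.1 to 58.3% ± 4.6, with the acceptor side from 38.1% to 73.2% and the donor side at 10.3% and 3.98%.

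The falls were led by CKB1, a regulatory subunit of casein kinase II, the kinase that phosphorylates the clock protein CCA1. Its member, the 180-nt intron 1 between coding exons (chr5:19125980-19126159), was at 61.2%, 59.0% and 62.4% in Col-0 and 14.9%, 18.7% and 20.4% in rrc1-3 in the dark. The groups did not overlap, and the log2 odds fell by 2.80 (adjusted p = 5.96e-07). In red light 58.7%, 52.4% and 67.0% stood against 20.5%, 19.7% and 21.5%. Donor boundary reads in the dark were 37, 28 and 24 in Col-0 and 20, 21 and 18 in rrc1-3, while reads spliced over the member were 26, 24 and 19 in Col-0 and 94, 89 and 86 in rrc1-3. The spliced reads of this junction therefore moved more than the unspliced ones.

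PCAP1, a cation-binding protein at the plasma membrane, had its 740-nt intron 1 in the 5′ UTR (chr4:10940827-10941566) at 75.8%, 76.6% and 76.5% in Col-0 and 37.3%, 42.0% and 41.5% in rrc1-3 in the dark (adjusted p = 8.41e-12). The red light values were 80.8%, 75.9% and 81.9% against 41.5%, 41.9% and 46.9%. The groups were well apart in both conditions. AT2G43160, a protein with an ENTH domain of the kind that binds membranes, had 71.3%, 60.3% and 69.2% in Col-0 and 27.1%, 29.1% and 26.3% in rrc1-3 over intron 1 in its 5′ UTR.

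IBM1 encodes a jumonji demethylase that removes methyl groups from histone H3 in gene bodies, and its long intron 7 is known for a methylated repeat that affects how its transcript is made. That intron (chr3:2429125-2431098, 1974 nt) was at 50.5%, 70.0% and 55.8% in Col-0 and 23.6%, 22.5% and 18.4% in rrc1-3 in the dark. In red light it was at 45.2%, 46.1% and 42.6% against 18.4%, 23.2% and 20.6%. The acceptor boundary held 0, 0 and 0 reads in Col-0 and 2, 4 and 7 in rrc1-3 in the dark, so nearly all its boundary reads lay at the donor. There the share fell from 73.7% to 33.8%. Spliced reads were 23, 12 and 23 in Col-0 and 105, 141 and 120 in rrc1-3, with donor reads at 47 to 58 and 47 to 78.

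The other named falls in the dark were AT1G01910 in its 3′ UTR, from 90.6% ± 3.4 to 62.2% ± 1.8, AT1G77350, from 39.9% ± 12 to 13.2% ± 0.25, AT5G61910, from 73.1% ± 5.7 to 48.1% ± 3.4, and AT1G02960, from 46.0% ± 9.1 to 21.4% ± 3.0. All 8 named falls in the dark had a competing acceptor inside the member. Of the named rises in the dark, 6 had only a competing donor, 1 a competing acceptor and 1 both. Over all called members in the dark the kinds were mixed, with an inner acceptor at 111 of 293 rises and 52 of 99 falls and an inner donor at 89 and 21. In red light the rule added P5CS1, the enzyme of proline synthesis, from 56.7% ± 14 to 26.4% ± 1.8, AT4G10925, from 78.9% ± 4.4 to 53.3% ± 3.3, AT1G65270, from 59.1% ± 7.4 to 36.2% ± 0.54, and AT1G55340, from 51.4% ± 4.5 to 29.7% ± 1.8. The AT4G10925 member named here is 115 nt long with a competing donor inside, and is not the longer intron whose acceptors are printed above.

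**Figure D3:**
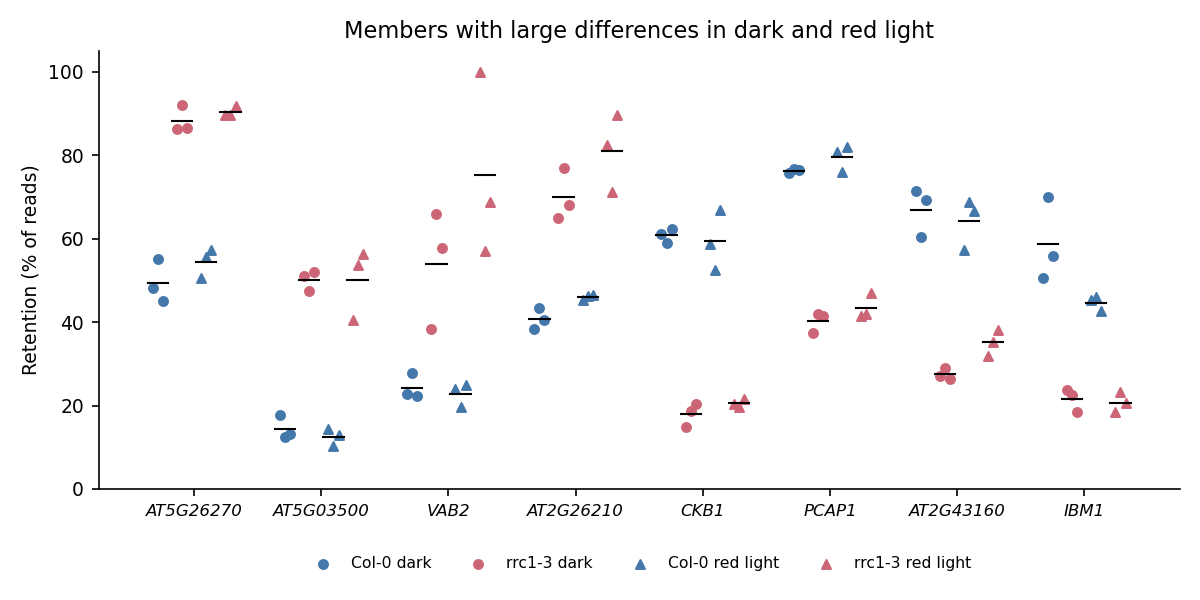
Retention in percent of 8 named members in each library, with lines at group means. AT5G26270, AT5G03500, VAB2 and AT2G26210 lie higher in rrc1-3, and CKB1, PCAP1, AT2G43160 and IBM1 lower, with no overlap of the genotypes in either light condition.

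The competing sites themselves were compared through pairs of junctions that share 1 site, at least 1 of them a member's, as the percentage of the pair's spliced reads that belonged to the longer intron. This comparison was added after the data were seen and can include only pairs with both junctions listed. In the dark, 53 of 245 pairs (21.6%) were called, with 22 moving to the longer intron in rrc1-3 and 31 to the shorter. In red light, 70 of 267 (26.2%) were called, 22 to the longer and 48 to the shorter. 21 pairs were called in both, of 117 tested in both, and all 21 moved the same way, 8 to the longer and 13 to the shorter. The genes named for their pairs were chosen after their values were seen.

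In CKB1 the acceptors lie 9 nt apart, and the downstream one took a larger share in rrc1-3. The longer intron took 7.76%, 8.36% and 7.39% of the spliced reads in Col-0 in the dark and 51.1%, 43.2% and 47.0% in rrc1-3 (log2 odds 3.37, adjusted p = 6.22e-09). In red light it took 6.74%, 10.8% and 8.15% in Col-0 and 44.3%, 54.5% and 43.4% in rrc1-3. Col-0 used the upstream AG almost alone, and rrc1-3 used both at about equal rates.

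AT3G58450 moved the other way. The downstream of its acceptors, 21 nt apart, took 66.1%, 69.0% and 69.3% in Col-0 and 23.0%, 14.3% and 11.6% in rrc1-3 in the dark (log2 odds -3.44, adjusted p = 1.01e-07). In red light the values were 59.8%, 68.8% and 70.5% against 14.01%, 12.2% and 13.9%. The preferred acceptor differed between the genotypes in both conditions, although retention of this member in the dark (22.3%, 33.3% and 26.8% in Col-0 and 27.6%, 34.1% and 45.5% in rrc1-3) overlapped and did not pass the test.

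The other printed pairs moved less. In AT4G10925, with acceptors 25 nt apart, the longer intron went from 84.6% ± 4.5 to 66.1% ± 5.1 in the dark and from 89.6% ± 3.1 to 48.5% ± 11 in red light. In AT3G48820, 27 nt apart, it went from 16.0% ± 2.0 to 31.3% ± 7.2 and from 11.4% ± 1.6 to 22.7% ± 4.4, the latter with an adjusted p of 0.0495. AT5G16880, 24 nt apart, went from 94.1% ± 0.37 to 90.5% ± 1.2 and from 93.3% ± 0.63 to 89.4% ± 1.2, and AT1G73390, with donors 4 nt apart, from 34.3% ± 0.61 to 46.8% ± 3.3 and from 35.4% ± 1.2 to 49.5% ± 2.5 (SD, n = 3 each). The genotypes did not overlap in any of these.

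**Figure D4:**
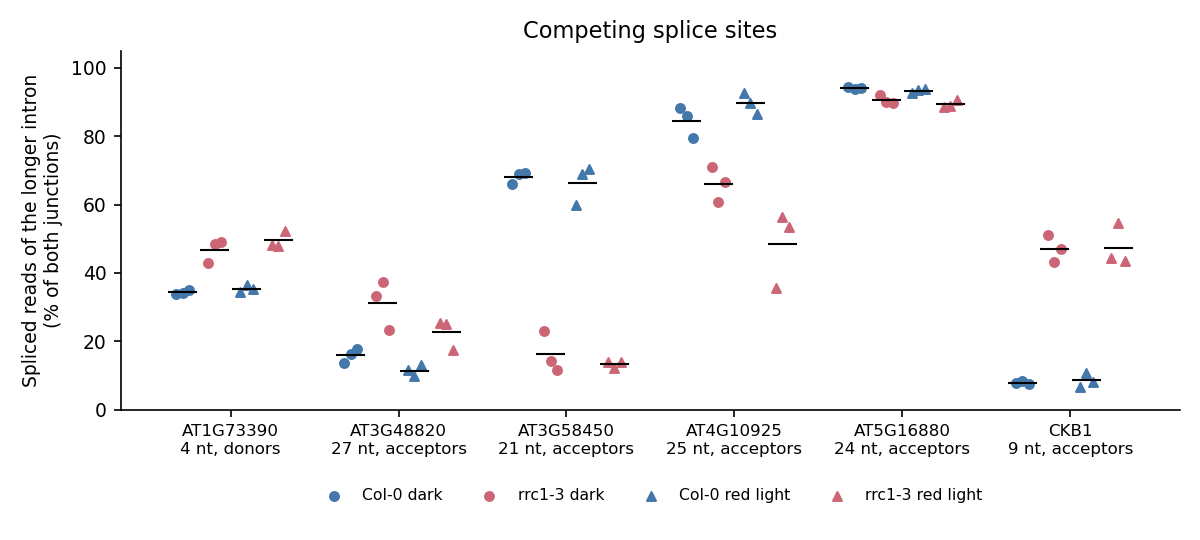
Percentage of spliced reads that belong to the longer intron of 6 pairs of competing sites, per library, with the distance between the sites below each gene. CKB1 moves from 6.74% to 10.8% in Col-0 up to 43.2% to 54.5% in rrc1-3, and AT3G58450 from 59.8% to 70.5% down to 11.6% to 23.0%.

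Sites farther apart moved as well. APX1, a cytosolic ascorbate peroxidase that removes hydrogen peroxide, used a donor 278 nt downstream of its main donor in more reads, so that the longer intron fell from 93.5% ± 0.34 to 61.1% ± 3.3 in the dark (adjusted p = 1.36e-11). XBAT35, a ubiquitin ligase with ankyrin repeats, went from 46.3% ± 1.8 to 15.4% ± 0.56 in the dark with acceptors 264 nt apart. TLP2, a tubby-like protein, went from 91.3% ± 1.2 to 72.2% ± 3.1 in the dark and from 90.9% ± 0.73 to 71.7% ± 2.2 in red light. CHLM, the methyltransferase of chlorophyll synthesis, went from 41.4% ± 2.6 to 57.6% ± 2.7 in the dark and from 41.1% ± 0.50 to 56.0% ± 2.4 in red light with acceptors 43 nt apart in its 3′ UTR.

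Members in genes of splicing factors moved in both directions in the dark, where 36.2% of all tested members were called higher and 12.2% lower. The counts for these genes are too small to be set apart from those shares. Of 20 SR protein genes looked up, 5 held a member in the dark, 1 of which rose and 1 fell, and their median difference was -4.98 points beside 5.99 over all members. SR34a rose over its 929-nt intron 1 in the 5′ UTR, from 16.7%, 18.3% and 14.5% in Col-0 to 28.3%, 35.6% and 42.4% in rrc1-3 (adjusted p = 1.45e-04). SCL33 fell over the 765-nt intron 3 that holds an alternative exon, from 56.8%, 54.1% and 56.3% to 39.3%, 37.4% and 48.5%. In red light 8 members in 6 of these genes were listed, 3 of which rose, in SR34a, SR34 and SCL33, and 0 fell. SR34 was at 8.88%, 8.69% and 12.2% in Col-0 and 19.9%, 11.3% and 17.7% in rrc1-3, which overlapped. Its call was lost without any of 4 of the 6 libraries (both of Col-0 replicates 1 and 2, and the first and the third rrc1-3 library), at adjusted p of 0.0717 to 0.122. RS2Z32 and RS31a had members in the dark that did not pass the test, at 27.8% and 22.8% and at 65.8% and 52.7% in Col-0 and rrc1-3.

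Among 34 matched genes of other splicing factors, 5 members were listed in the dark (1 rose, 2 fell) and 2 in red light (1 rose, 0 fell). SKIP, a spliceosome protein linked to the circadian clock, rose in red light over its 299-nt only intron, in the 5′ UTR (chr1:29001665-29001963). It was at 4.63%, 6.22% and 4.80% in Col-0 and 22.9%, 21.2% and 23.7% in rrc1-3 (log2 odds 2.41, adjusted p = 3.94e-09). The acceptor side went from 8.03% to 34.5% and the donor side from 2.22% to 5.33%, and the longer of its junctions went from 86.2% ± 0.54 to 69.2% ± 2.1 of the pair. AFC2 (FC2 in RefSeq), a LAMMER kinase that phosphorylates SR proteins, fell in the dark from 48.4%, 54.1% and 54.6% to 28.8%, 36.7% and 38.1%. Its fall lay at the donor side, from 62.9% to 34.5%, with the acceptor side at 33.4% and 34.5%. ATU2AF65A, which recognises the acceptor, was at 65.9% ± 2.6 and 72.6% ± 2.3 (adjusted p = 0.0489), a call lost without any of 4 of the 6 libraries (adjusted p up to 0.151). PRP39 intron 4 fell from 11.0% ± 0.19 to 6.98% ± 1.7, a call lost without Col-0 dark replicate 1 or the first rrc1-3 library (adjusted p = 0.0541 and 0.0699).

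Of 39 light signalling genes, 4 held a member in the dark and 3 in red light. PIF3, a bHLH repressor of the light response that phytochromes degrade, rose in the dark over intron 2 in the 5′ UTR, from 22.8%, 16.2% and 14.4% in Col-0 to 25.0%, 29.6% and 35.6% in rrc1-3 (adjusted p = 0.00249). In red light PIF3 was at 19.7% ± 4.6 and 25.8% ± 1.8 and did not pass the test. PIF5 (PIL6 in RefSeq) fell in the dark, at 65.5%, 43.4% and 86.7% in Col-0 and 38.6%, 43.5% and 40.0% in rrc1-3. Its groups overlapped, the call (adjusted p = 0.0453) was lost without Col-0 replicate 1 or 3 or any rrc1-3 library, and the log2 odds ranged from -2.23 to -0.72 without Col-0 replicate 2 or 3. PIF4 and FHY3 in the dark, and PIF1 (PIL5 in RefSeq) and PIF4 in red light, did not pass. No gene of the auxin list held a member.

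Of 28 matched clock genes, 3 held a member in each genotype comparison. LCL1, a MYB relative of CCA1 and LHY, rose in the dark from 4.82% ± 0.69 to 7.85% ± 0.76 and in red light from 9.29% ± 1.9 to 14.8% ± 2.2. The dark call was lost without Col-0 replicate 1 or 3 or the third rrc1-3 library (adjusted p = 0.0533, 0.0649 and 0.0510). LNK1 (AT5G64170), LNK2 (AT3G54500) and PRR3 did not pass. Among photosynthesis genes, CHLM rose in the dark over its 236-nt intron in the 3′ UTR, from 23.0%, 18.8% and 21.4% to 28.6%, 26.6% and 27.2% (adjusted p = 0.0254), and the call was lost without Col-0 replicate 2 or the second rrc1-3 library. RBCS3B, a small subunit of Rubisco, fell in red light, at 100%, 100% and 97.7% in Col-0 and 98.8%, 95.2% and 85.5% in rrc1-3, with a log2 odds of -2.85 that was -9.83 without Col-0 replicate 3 and -1.82 without the third rrc1-3 library. Rubisco small subunit genes are near-identical copies, so its reads are uncertain.

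The dark and red light comparisons used separate Col-0 and separate rrc1-3 libraries and shared 523 members, or 64.6% of those listed in the dark and 62.5% of those listed in red light. The difference had the same sign at 479 and the opposite sign at 44. 222 were called in both, 175 of them higher in both, 46 lower in both and 1 opposite. Pearson's r between the differences in the dark and in red light was 0.768 across these introns, which share a filter on the size of the difference and are not independent replicates.

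**Figure D5:**
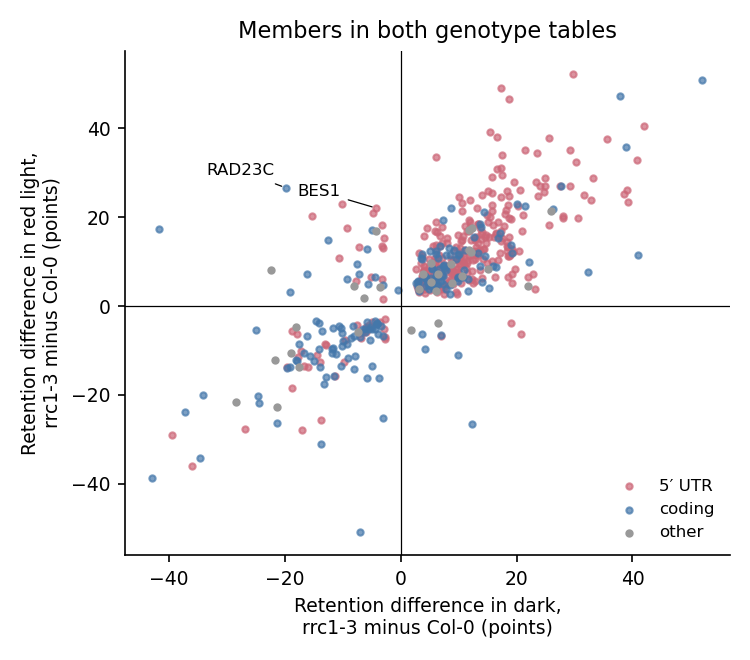
Difference in retention between rrc1-3 and Col-0 in points, in the dark (horizontal axis) and in red light (vertical axis), for the 523 members listed in both. Most points lie in the upper right or lower left, and 44 have opposite signs, BES1 and RAD23C among them.

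Whether light changed the genotype difference was tested directly at these 523 members. The 287 members listed only in the dark and the 314 listed only in red light could not enter this test. The members tested had been called by the authors in both conditions, so the count does not show how often light changed the genotype difference. Of the 523, 1 passed, beside 0.0426% of all 2349 features tested, and 36 members had an unadjusted p under 0.05. With DESeq2 none passed, the smallest adjusted p being 0.0947. The 1 member was intron 1 of BES1, a transcription factor of brassinosteroid signalling, in its 5′ UTR (chr1:6688645-6688774). Retention in the dark was 59.1%, 61.2% and 67.4% in Col-0 and 52.9%, 58.2% and 63.9% in rrc1-3, which overlapped. In red light it was 45.5%, 38.5% and 44.8% in Col-0 and 68.8%, 61.9% and 64.3% in rrc1-3, which did not. The difference of the effects was 1.60 in log2 odds (unadjusted p = 1.58e-05, adjusted p = 0.0372 with edgeR), and the adjusted p ranged from 0.0157 to 0.466 over the alternatives. It was above 0.05 without any of 7 of the 12 libraries.

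RAD23C, a carrier of ubiquitinated proteins, was the 1 member called in opposite directions. Its 86-nt intron 5 was at 80.4%, 76.5% and 81.4% in Col-0 and 64.6%, 51.2% and 63.0% in rrc1-3 in the dark, and at 45.5%, 61.9% and 51.4% against 87.8%, 77.8% and 73.1% in red light. The groups did not overlap in either condition, the test of the difference gave 3.17 with an adjusted p of 0.0804, and the dark call was lost without Col-0 replicate 1 or 3 or the second rrc1-3 library.

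Within rrc1-3, 69 members were listed for red light against dark. 53 were called (76.8%), beside 86.5% of all listed features, with 44 higher in red light (63.8%, beside 63.5%) and 9 lower (13.0%, beside 22.9%). A difference of at least 10 points left 11 and 3, and the second boundary alone gave 26 and 5. The median difference was 6.02 points, beside 4.33 for plain introns. Libraries did not overlap at 41 members in the higher direction (59.4%) and 10 in the lower (14.5%), beside 64.7% and 21.9% of all listed introns. Of 33 members in the 5′ UTR, 21 rose and 2 fell, of 25 between coding exons 15 rose and 7 fell, and of 10 in the 3′ UTR 7 rose and 0 fell. Plain introns were close to this. In the 5′ UTR 63.6% of members rose and 6.06% fell, beside 66.2% and 9.46% of plain introns. Between coding exons these were 60% and 28%, beside 65.4% and 25.6%, and in the 3′ UTR 70% and 0%, beside 81.25% and 6.25%. The boundary balance moved to the acceptor side at 1 of 33 members of the 5′ UTR and to the donor side at 0, where the background over listed introns was 0.133% and 0.531%. Col-0 in red light against dark was not analysed here, so the same members in the wild type are given only where a genotype comparison listed them.

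The named rises in red light are given first. mtLPD1, a mitochondrial lipoamide dehydrogenase, was at 28.2%, 40.2% and 49.0% in the dark and 72.8%, 78.8% and 78.0% in red light over a 104-nt intron of its 3′ UTR (log2 odds 2.35, adjusted p = 1.58e-06). CHLM was at 28.6%, 26.6% and 27.2% in the dark and 49.4%, 51.9% and 49.2% in red light. The conditions did not overlap for either gene. In CHLM the donor side rose from 33.8% to 63.3% while the acceptor side was at 19.8% and 22.3%, and the balance moved to the donor side (log2 -1.54, adjusted p = 5.4e-06). In Col-0 the same intron was at 21.1% ± 2.1 in the dark and 54.0% ± 1.9 in red light, levels from separate tables that were not tested against each other, and the difference of the genotype effect there was -0.74 with an adjusted p of 0.306.

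PnsB4, a subunit of the NDH complex in the thylakoid, was at 11.4%, 23.2% and 17.9% in the dark and 40.7%, 36.2% and 38.2% in red light. AT2G26500, the petM subunit of cytochrome b6f, was at 84.9%, 81.2% and 56.5% in the dark and 90.3%, 88.8% and 90.5% in red light, and its log2 odds went from 1.64 to 0.83 without rrc1-3 dark replicate 3, where the call was lost (adjusted p = 0.123). PIFI, a protein that affects fluorescence after illumination, rose from 5.10% ± 0.55 to 13.1% ± 3.4. All 3 members of the photosynthesis list rose, 2 of them overlapping introns of CHLM that share a donor. The remaining named rises were AT3G45050, from 27.5% ± 5.0 to 51.7% ± 14, AT2G16365, an F-box protein, from 10.9% ± 0.97 to 34.4% ± 5.2, EMB3114, a mitochondrial transcription termination factor relative, from 33.2% ± 5.0 to 47.8% ± 2.8, and AT2G32650, from 11.6% ± 3.2 to 25.8% ± 2.6. AT2G16365 was also the only 1 of 21 junction pairs called (4.76%), its longer intron going from 98.9% ± 1.9 to 72.8% ± 6.4.

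Of 5 members in clock genes, 4 fell in red light and 1 rose, with a median difference of -6.98 points, where 22.9% of all listed features were called lower and 63.5% higher. These 4 were among the 9 falls of members. CCA1, a morning MYB repressor of the clock, was at 24.8%, 26.3% and 25.9% in the dark and 18.5%, 13.2% and 14.7% in red light over the 478-nt intron 4, whose retained form is known in the literature on temperature (adjusted p = 0.00127). LHY, its partner, was at 5.68%, 1.55% and 4.14% in the dark and 0.674%, 0.480% and 0.493% in red light (adjusted p = 2.03e-04). LNK1 was at 13.8%, 19.4% and 17.5% against 8.58%, 6.86% and 10.2%, and LNK2 over intron 2 at 10.2%, 15.5% and 13.0% against 6.29%, 5.58% and 5.93%. The conditions did not overlap for any of the 4. Spliced reads were 130 to 136 in the dark and 541 to 647 in red light in CCA1. In LHY they were 162 to 222 and 1105 to 1211. In LNK1 they were 29 to 47 and 380 to 469, and in LNK2 194 to 281 and 641 to 967. Acceptor boundary reads were 52 to 58 and 125 to 150 in CCA1, and 2 to 20 and 9 to 12 in LHY. In LNK1 these were 12 to 15 and 45 to 81, and in LNK2 31 to 57 and 50 to 69. Spliced reads were thus higher in red light in all 4. The member that rose, in AT5G06980, was at 6.57%, 6.76% and 7.10% in the dark and 11.3%, 8.36% and 13.7% in red light (adjusted p = 0.0161), and it is named outside the rule, after its values were seen. LNK1 and LNK2 are coactivators induced by light that act with MYB proteins of the clock.

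PSY, the enzyme that commits carbon to carotenoids, fell over intron 1 in the 5′ UTR, from 20.9%, 17.6% and 22.7% in the dark to 10.1%, 9.70% and 8.57% in red light (adjusted p = 5.01e-05). PRP39, a factor of the U1 particle, fell over the intron that holds an alternative exon, from 29.9%, 30.3% and 30.7% to 16.2%, 22.3% and 23.3%. The other falls named by the rule, in AT5G62130 (from 18.2% ± 5.7 to 12.4% ± 0.45) and TAF4 (from 13.2% ± 1.1 to 9.20% ± 2.1), each lost their call without any of 3 of the 6 libraries. For AT5G62130 these were rrc1-3 dark replicate 3, without which its log2 odds went from -0.62 to -0.32, and the first and the third red light library. For TAF4 they were rrc1-3 dark replicate 2 and the second and the third red light library.

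18 members were listed in all 3 comparisons, which share the rrc1-3 libraries, so their values are given side by side. PSY was at 8.53% in Col-0 and 20.4% in rrc1-3 in the dark, and at 3.63% and 9.47% in red light, so that the level in rrc1-3 in red light was close to that of Col-0 in the dark. MPK17, a MAP kinase, was at 3.18% and 9.31% in the dark and 5.64% and 14.1% in red light over the 201-nt intron 1 of the 5′ UTR. AT5G16880 was at 5.75% and 11.6% and at 7.44% and 14.5%. TPR1, a corepressor of the TOPLESS family, was at 5.38% and 9.29% and at 7.91% and 14.7%, and its dark call was lost without the second rrc1-3 library (adjusted p = 0.128) and without Col-0 dark replicate 1 (adjusted p = 0.0501). AT1G63770, a peptidase, was at 1.27% and 5.36% and at 2.31% and 11.4%, and AT2G16365 at 3.80% and 10.9% and at 16.6% and 34.4%. AT2G26500 was at 46.1% and 74.2% in the dark. AT1G56220, of a family named for dormancy and auxin, was the only 1 of these 8 to fall in rrc1-3, from 39.1% to 25.1% in the dark and from 44.2% to 30.4% in red light.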

How the data were processed

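Total RNA libraries were made with RNeasy and NEBNext Ultra kits, per the labels' protocols, and reads were aligned with TopHat2 to TAIR10 (submitters' processing notes). The splicing tables have the layout of ASpli and hold counts of reads per boundary and junction for each library, per the file headers. The authors deposited the fraction retained in each group, the difference of fractions (a score), a log2 change and a p-value with its FDR, and expression tables (FPKM, log2 fold change, q-value). Recomputing the fractions from the counts gave the deposited values within 1e-06.

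Retention was computed from the counts. Inclusion (mean of the 2 boundaries) and spliced reads were tested with edgeR's quasi-likelihood test (edgeR 4.0.16, R 4.3.3), with a term per library, over all features of a table with a mean of at least 10 reads, with Benjamini-Hochberg adjustment. Changes are in log2 odds, second group minus first. The boundary balance and junction pairs used the same model. DESeq2 1.42.0 was an alternative. The test was also run on simulated counts with the same spread set for all features, which may differ from these data, and no result rests on it. Columns number a table's libraries 1 to 6 over its 2 groups, so 4 to 6 were read as replicates 1 to 3 of the second group. Same-numbered libraries deviated together in the light comparison (r 0.225, 0.213 and 0.197 over 63 members with at least 50 reads), a pairing seen in the data and not in the labels. The calls and adjusted p-values given come from the fit without a replicate block. With the number as a block, an alternative, 47 members were called higher and 10 lower in the light comparison. In the genotype comparisons no pair reached 0.1. Introns were placed on RefSeq transcripts (TAIR10.1).

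Named were, per comparison, the 8 largest rises and falls of called members with at least 50 reads and no overlap, up to 4 members per gene list, up to 8 members of all 3 tables, and members called in opposite directions. Members and lists were chosen with earlier results of these data known, and the gene lists give no independent support. One result is not reported here.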

Additional observations from a re-analysis of the deposited data

Results flagged for a closer look

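The intron 1 of BES1 was taken up because the test of the difference between its genotype effects in red light and in the dark passed, at 1.604 in log2 odds. The genotype effect alone was -0.29 in the dark (adjusted p = 0.271) and 1.31 in red light (adjusted p = 9.1e-05). A second member of BES1, which overlaps the first, was lower in rrc1-3 in both conditions, at 96.9% ± 2.2 and 91.8% ± 1.4 in the dark and 96.2% ± 1.3 and 91.5% ± 1.1 in red light (SD, n = 3 each). The groups had 3 libraries each, too few for a check of single libraries that stand apart.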

How the results depend on the processing

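Counts are given as higher and lower, dark first. DESeq2 called 192 and 64 members in the dark and 224 and 44 in red light. The first boundary alone gave 190 higher in the dark, and the second boundary alone gave 192 in the dark, 228 in red light, and 26 and 5 in the light comparison. A difference of at least 10 points left 163 and 57, 208 and 44, and 11 and 3. Leaving out 1 library gave 226 to 299 and 71 to 101 in the dark, 254 to 333 and 54 to 80 in red light, and 35 to 44 and 7 to 10 in the light comparison. For the difference of effects, DESeq2, the sum of both boundaries and either boundary alone called 0 members, and leaving out 1 library 0 to 2 higher and 0 to 1 lower. The difference of median retention between red light and dark in rrc1-3 was 3.12 points, and 1.50 with the first boundary alone. Of 5′ UTR members, leaving out 1 library moved 54 to 106 to the acceptor side in the dark and 120 to 147 in red light, 0 to 1 and 1 to 2 to the donor side, and 0 to 1 to the acceptor side in the light comparison. No filter moved 0 to the donor side in the dark, and at least 50 reads 3. Pairs moved to the longer and shorter intron numbered 19 to 26 and 29 to 33, 16 to 21 and 38 to 44, and 0 to 1 and 1 to 2.

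Single members that changed direction did so with 1 boundary alone, except PIF4 in red light (-0.17 to 0.48 when 1 library was left out). With the first boundary these were BPC2 (-0.79), RS31a (0.14), RS2Z32 (0.075), FC2 (0.070 in the dark, 0.50 in red light) and PTB2 (0.00058). With the second they were IBM1 (2.51), AT3G26890 (-0.52), AT3G54500 (-0.14 and -0.077), ATU2AF65A (-0.53), AT5G64170 (-0.82), ATXRCC1 (-1.16), PIL5 (-0.052) and the longer intron of CHLM (-0.30). First and second are by coordinate, so on the minus strand the second is the donor side. The cause was not tested beyond the boundary chosen. Normalization by TMM changed no call of a named member. With the replicate number as a block, 299 and 100 members were called in the dark, 351 and 82 in red light, 47 and 10 in the light comparison, and 2 and 0 for the difference of effects. In the light comparison, where same-numbered libraries deviated together, 52 of the 53 calls made without the block were shared, 1 was lost and 5 gained. There every library correlated best with its own number. In the genotype comparisons the same-numbered pairs correlated at -0.00537 to 0.0696. Values this low cannot tell whether these libraries share more than a number, and the labels do not say.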
